A study of Mus musculus with 21 samples.

Results

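The genes described here are the Slc25a genes, which encode the family of mitochondrial carriers. All genes whose symbol begins with Slc25a in both deposited tables were taken, without the 1 symbol that marks a pseudogene. This gave 47 genes, out of 33829 listed for the pre-treatment and 55385 listed for the delayed treatment experiment. Slc25a17, counted below with the carriers of cofactors and nucleotides, is annotated with the term peroxisome and without the term mitochondrial inner membrane. After a filter on low counts 45 could be tested in the pre-treatment experiment, where Slc25a31 and Slc25a54 did not pass, and 46 in the delayed treatment experiment, where Slc25a54 did not pass.

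Mitochondrial carriers are small membrane proteins that move metabolites, nucleotides, cofactors and ions across the inner membrane of the mitochondrion. Each carrier has a preferred cargo. The adenine nucleotide carriers export ATP in exchange for ADP, the phosphate carrier brings in the phosphate for ATP synthesis, and the aspartate/glutamate, oxoglutarate/malate and glutamate carriers link the cytosol to the matrix in neurons and astrocytes. MPTP is a neurotoxin whose product blocks respiratory complex I in dopaminergic neurons, so the carriers work beside the step that the toxin hits. Irisin is a hormone released from a muscle membrane protein.

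Midbrain RNA (nigral tissue, per the study's methods) of 21 male C57BL/6 mice, aged 6 weeks per the labels, was sequenced in 2 experiments, with 3 mice in each of 7 groups, and all agents were given by intraperitoneal injection. In the pre-treatment experiment, control mice received ddH2O for 10 days, MPTP mice received ddH2O for 5 days and then MPTP at 30 mg/kg/day for 5 days, and the remaining mice received irisin at 200 µg/kg/day for 5 days and then the same MPTP course. In the delayed treatment experiment, control mice received ddH2O for 10 days, irisin mice received ddH2O and then irisin, MPTP mice received MPTP and then ddH2O, and the last group received MPTP and then irisin, each agent for 5 days at the doses above. No genetic change is named in the labels, so the groups model exposure to a toxin. The labels number the mice of a group without saying whether litters or batches were shared, and p-values measure the spread between these mice.

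Library totals, rounded, ran from 66653800 to 75637600 counts in the pre-treatment and from 48843600 to 77203400 counts in the delayed treatment experiment. Genes of the mitochondrial genome took 10.6 to 12.9% of the counts in the first. In the second they took 8.48 to 9.50% in controls, 8.04 to 8.71% with irisin alone, 7.65 to 7.80% with MPTP and 7.87 to 8.68% with MPTP and then irisin. The summed level of 6 dopaminergic markers was 281 to 323 normalised read counts scaled to library size (CPM) in the delayed controls and 147 to 232 CPM after MPTP. With irisin alone it was 252 to 284 CPM, and with MPTP and then irisin 150 to 190 CPM. In the pre-treatment experiment it was 233 to 397 CPM in controls, 232 to 457 CPM with MPTP and 173 to 284 CPM with irisin before MPTP. The marker Pitx3 had a count of 0 in 3 mice, each of a different group that had received MPTP, and the other 5 markers had counts in all mice. Choroid plexus markers ran from 6.44 to 1610 CPM among the mice, with single mice far above the others of their group. In bulk tissue fewer cells of a type and less RNA per cell cannot be told apart.

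The adenine nucleotide carriers share a signature, a run of 3 arginine and 3 methionine codons, which is shown here because it marks Slc25a4, Slc25a5 and Slc25a31 as one group whose levels in this tissue differ widely. The lines give the coding strand 5′ to 3′ from GENCODE M21 transcripts (GRCm38), and the capitals mark the arginine and methionine codons (residues 235 to 240, 235 to 240 and 248 to 253 of 298, 298 and 320). The first lies on the minus strand at chr8:46208398-46208464, the second on the plus strand at chrX:36797810-36797876 and the last on the plus strand at chr3:40722701-40722751, each in a coding exon, where the last stops at the exon's end.
Slc25a4: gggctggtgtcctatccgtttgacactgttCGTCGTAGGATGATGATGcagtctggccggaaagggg
Slc25a5: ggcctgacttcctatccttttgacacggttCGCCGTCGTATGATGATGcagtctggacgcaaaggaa
Slc25a31: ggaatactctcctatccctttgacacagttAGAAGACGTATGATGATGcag
Over the whole coding sequence 77.4% of the aligned bases were identical between Slc25a4 and Slc25a5, 66.9% between Slc25a4 and Slc25a31, and 66.85% between Slc25a5 and Slc25a31. The longest run of identical bases was 20, 14 and 21 bases in these pairs.

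The ATP-Mg/phosphate carrier gene Slc25a25 (chromosome 2, 32414487 to 32451422, minus strand) had the widest range of fold changes among the well measured members, described below. Its promoter window in RefSeq (GRCm38.p6, chr2:32424017-32424316, minus strand, 250 bases before to 50 after a transcript start inside the gene) is printed with the cyclic AMP response element, TGACGTCA, in capitals.
Slc25a25: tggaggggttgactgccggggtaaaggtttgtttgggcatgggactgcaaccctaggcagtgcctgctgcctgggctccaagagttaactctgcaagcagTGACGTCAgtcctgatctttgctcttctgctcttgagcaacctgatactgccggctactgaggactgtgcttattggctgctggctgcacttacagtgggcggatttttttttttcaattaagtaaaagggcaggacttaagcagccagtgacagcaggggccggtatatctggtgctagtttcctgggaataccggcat
The match starts 150 bases before the transcript start. Of the 36 members with a promoter window, Slc25a25 and Slc25a36 held this element on either strand, and it was in 2.03% of all 27025 genes with a window. Slc25a36 ran from 112 to 127 CPM over the pre-treatment mice and from 90.6 to 111 CPM over the delayed treatment mice. Whether the element goes with changes in level was not tested. The core CGCATGCG of nuclear respiratory factor 1 was in 0 of the 36 members and in 2.07% of all genes. AAGGTCA, a core of estrogen-related receptor sites, was in Slc25a34 and in 5.38% of all genes. CCGGAAGT, the core of ETS factors, was in Slc25a20 and in 4.31% of all genes. These are matches of letters, not measured binding sites.

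Levels of the carrier genes in the control mice ran from a few genes at a count of 0 to more than 200 FPKM (fragments per kilobase, scaled to library size). Levels are compared between genes on this scale only. Of the 47 genes, 17 were at 10 FPKM or more in each experiment's controls, 21 and 23 lay between 1 and 10 FPKM, and 9 and 7 were under 1 FPKM in the pre-treatment and delayed treatment experiment.

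**Figure D1:**
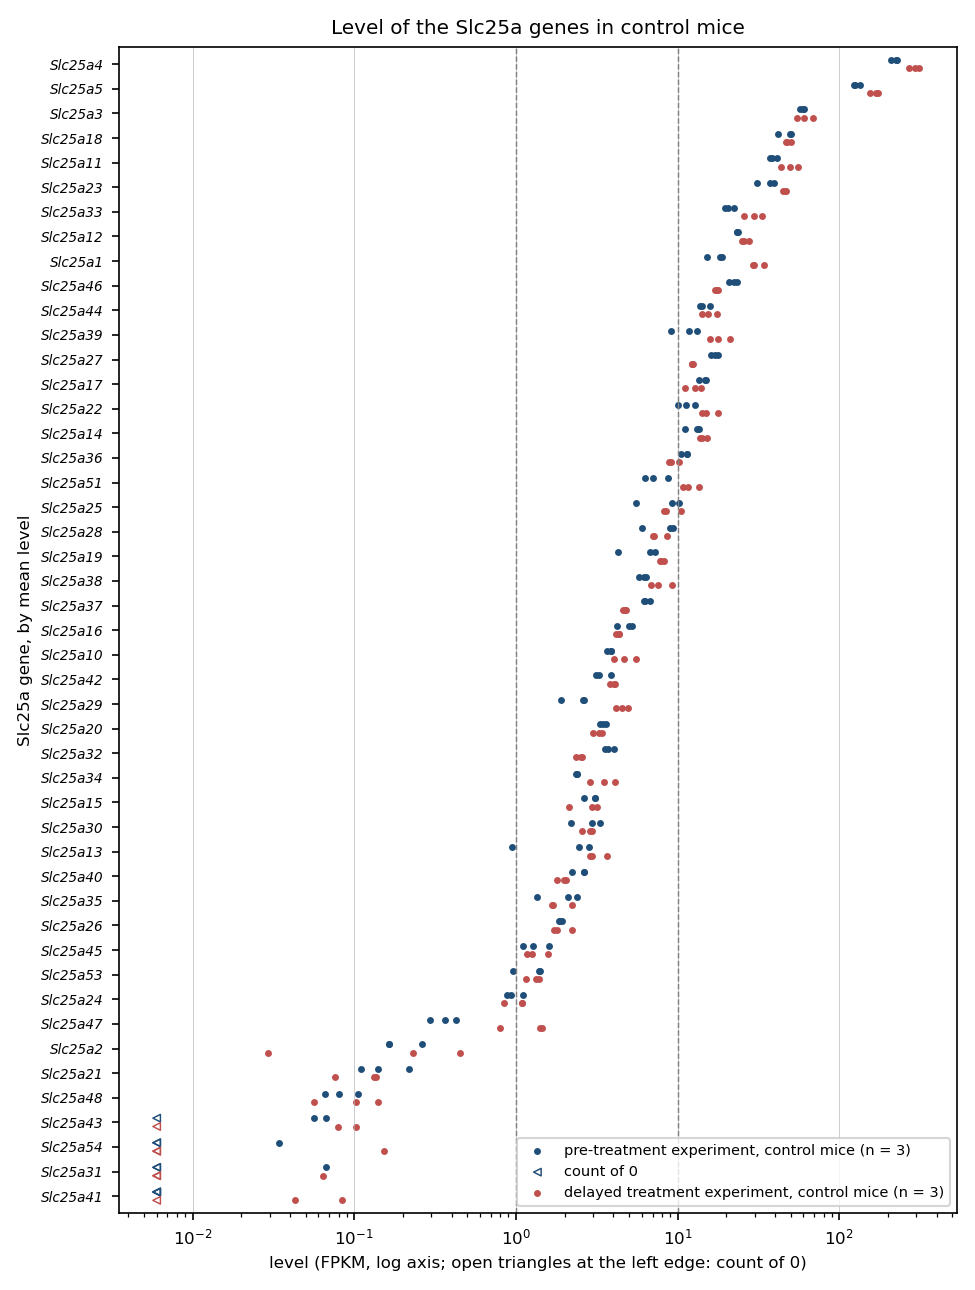
Level of each Slc25a gene in FPKM (log axis) in the 3 control mice of the pre-treatment experiment (blue) and of the delayed treatment experiment (red); open triangles mark a count of 0 and dashed lines mark 1 and 10 FPKM. Slc25a4 and Slc25a5 stand above all other members in each of the 6 mice, and Slc25a43, Slc25a54, Slc25a31 and Slc25a41 have a count of 0 in some.

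Slc25a4, the adenine nucleotide carrier of excitable tissues, was the highest, at 220 ± 10.5 FPKM (SD, n = 3) in pre-treatment controls and 292 ± 20.4 FPKM in delayed controls. Slc25a5, the form of proliferating and most other cells, was next at 128 ± 5.66 and 166 ± 10.1 FPKM. Slc25a31, known from the testis, was at 0.0225 and 0.0215 FPKM on average, with a count of 0 in 4 of the 6 control mice. The adenine nucleotide carriers together made up 42.6 to 48.8% of the summed FPKM of the family in every mouse, and Slc25a4 alone 26.7 to 31.3%.

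The mitochondrial phosphate carrier Slc25a3 followed at 59.1 ± 1.90 and 61.4 ± 6.64 FPKM. Below it, the glutamate carrier Slc25a18 (47.4 ± 4.65 and 48.3 ± 1.80 FPKM), the oxoglutarate/malate carrier Slc25a11 (38.9 ± 2.09 and 49.8 ± 6.06 FPKM) and the ATP-Mg/phosphate carrier Slc25a23 (35.9 ± 4.27 and 46.1 ± 0.862 FPKM) lay within each other's spread in the delayed controls. In the pre-treatment controls Slc25a11 and Slc25a23 also overlapped, and their order to each other is not settled. These 6 genes took 63.8 to 69.6% of the family's summed FPKM in every mouse, and the same 6 led when mean counts were divided by gene length.

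Pairs of carriers with like cargo differed widely in level. Of the aspartate/glutamate carriers, Slc25a12 was at 23.4 ± 0.164 and 26.1 ± 1.36 FPKM and Slc25a13, the form known from liver, at 2.08 ± 0.990 and 3.16 ± 0.416 FPKM. Slc25a22, the other glutamate carrier, was at 11.4 ± 1.39 and 15.7 ± 1.92 FPKM, below Slc25a18 in all controls. Among the ATP-Mg/phosphate carriers Slc25a25 was at 8.30 ± 2.44 and 9.02 ± 1.23 FPKM, Slc25a24 at 0.971 ± 0.123 and 1.01 ± 0.139 FPKM, and Slc25a41 at 0 and 0.0422 ± 0.0418 FPKM.

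Carriers of iron, glutathione and cofactors were of middle level. The mitoferrins, which bring iron into mitochondria, were at 6.42 ± 0.287 and 4.71 ± 0.0773 FPKM (Slc25a37) and at 8.12 ± 1.86 and 7.59 ± 0.841 FPKM (Slc25a28). The glutathione carrier Slc25a39 was at 11.4 ± 2.09 and 18.2 ± 2.63 FPKM and its relative Slc25a40 at 2.498 ± 0.247 and 1.94 ± 0.130 FPKM. Slc25a51, which carries NAD, was at 7.38 ± 1.24 and 11.95 ± 1.38 FPKM. Slc25a14 and Slc25a27, brain members close to the uncoupling proteins, were at 12.6 ± 1.36 and 14.4 ± 0.737 FPKM, and at 16.9 ± 0.868 and 12.3 ± 0.115 FPKM. Slc25a46, which sits in the outer membrane and takes part in mitochondrial shape, was at 22.1 ± 1.21 and 17.5 ± 0.314 FPKM.

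The members are spread over 19 chromosomes, and 4 pairs are neighbours within 50000 bases whose levels differ. Slc25a5 (X, 36795651 to 36798807) lies 18448 bases from Slc25a43, at 128 against 0.0411 FPKM in pre-treatment controls. Slc25a23 (17, 57043711 to 57059863) lies 2056 bases from Slc25a41, at 35.9 against 0 FPKM. Slc25a29 and Slc25a47 start 162 bases apart on opposite strands of chromosome 12, at 2.39 and 0.361 FPKM, and Slc25a24 lies 6461 bases from Slc25a54, at 0.971 and 0.0115 FPKM.

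The first comparison set a 5-day MPTP course given after ddH2O against ddH2O throughout. None of the 45 tested carriers passed an adjusted p of 0.05 in the edgeR quasi-likelihood test (Benjamini-Hochberg adjustment over all tested genes), where 5 of 22641 genes (0.0221%) did. Unadjusted p-values under 0.05 were found for 2 carriers with higher and 2 with lower means, against 3.36% and 2.67% of all tested genes. The higher ones include Slc25a41, whose p is a description for the reason given below. For 4 carriers in each direction the groups were apart, against 11.6% of all tested genes in either direction. Slc25a41 is also among these higher ones, as a description for the same reason. The median log2 fold change of the carriers was 0.01, beside -0.0018 over all tested genes, and 24 of 45 were positive.

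Slc25a10, the dicarboxylate carrier that exchanges malate or succinate for phosphate, was at 14.2, 15.6 and 14.98 CPM in the controls and at 12.8, 12.05 and 13.2 CPM with MPTP. Every MPTP mouse was below every control. The log2 fold change was -0.24 (SE 0.08, unadjusted p = 0.0192, adjusted p = 0.819 from edgeR). Slc25a4 was at 550, 607 and 599 CPM in controls and 548, 527 and 544 CPM with MPTP, a log2 fold change of -0.12 (SE 0.05, unadjusted p = 0.0478, adjusted p = 0.823 from edgeR). The lowest control, at 550 CPM, lay next to the highest MPTP mouse, and 1 of 6 fits that each left out 1 mouse kept its p under 0.05.

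Low carriers gave the other small p-values of this comparison. Slc25a41 had a count of 0 in all 3 controls and of 23, 18 and 30 with MPTP, or 0.331, 0.258 and 0.400 CPM. Against a floor of 3 counts per library its mean was at least 7.50-fold higher with MPTP (unadjusted p = 0.00587, adjusted p = 0.786 from edgeR; adjusted p = 0.0311 from DESeq2). It passed edgeR's count filter, at a level of 0.143 CPM in 3 mice, through the MPTP mice, with 0 of 3 controls and 1 of 3 mice with irisin before MPTP past it. In edgeR the gene was thus tested through its level in the MPTP mice. DESeq2 was run on all genes with any count, so that filter had no part in its p. That p rests on counts of 18 to 30 against 0, and the p-values of both tests are given as a description. No other carrier had an adjusted p under 0.05 in DESeq2. The neighbouring gene Slc25a23, at 185 to 233 CPM in these 6 mice, had a log2 fold change of -0.09 (SE 0.09). Slc25a47, known as a liver carrier, was at 0.999, 1.28 and 1.43 CPM in controls and at 3.28, 3.01 and 1.74 CPM with MPTP, a log2 fold change of 1.11 (SE 0.34, unadjusted p = 0.0107, adjusted p = 0.815 from edgeR). The MPTP mice were above the controls, and both experiments' other groups lay at 1.62 CPM or more.

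The question of the next comparison was what irisin given before MPTP did beside MPTP alone. Again 0 of 45 carriers passed the adjusted test in edgeR, against 16 genes in all (0.0707%), and 0 passed in DESeq2 or limma. Unadjusted p-values under 0.05 were found for 2 higher and 2 lower carriers, beside 2.93% and 3.29% of all tested genes. With irisin, 7 carriers were higher and 3 lower without overlap of the groups, beside 14.2% of tested genes in either direction. The lower ones include Slc25a41, which passed the count filter through the MPTP mice, so its separation is a description. The median log2 fold change of the carriers was 0.031 and that of all tested genes 0.0031.

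Slc25a10 was at 15.2, 14.9 and 15.2 CPM with irisin before MPTP, above the 12.05 to 13.2 CPM with MPTP alone and within the range of the controls. Its log2 fold change against MPTP was 0.25 (SE 0.08, unadjusted p = 0.0145, adjusted p = 0.631 from edgeR). Both comparisons use the same 3 MPTP mice, so the opposite signs are not independent of each other. In the delayed experiment Slc25a10 was at 15.5 ± 1.77 CPM with MPTP and at 14.9 ± 3.20 CPM with irisin after it. Exons of Slc25a10 share 228 of 3455 bases with an antisense gene, Gm11788, and whether counting used strand is not given in the sources used here.

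Slc25a34, a carrier whose cargo is not settled, was at 8.45, 9.77 and 6.77 CPM with MPTP and at 13.9, 10.7 and 11.6 CPM with irisin before it. The groups did not overlap (log2 fold change 0.54, SE 0.15, unadjusted p = 0.00733, adjusted p = 0.551 from edgeR). Controls lay at 7.10 to 7.29 CPM. In the delayed experiment the same gene was at 10.1 to 11.1 CPM with MPTP and at 7.22, 12.9 and 9.47 CPM with irisin after it.

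Slc25a25 was lower with irisin before MPTP, at 57.9, 50.01 and 52.2 CPM, than with MPTP alone, at 82.8, 78.9 and 72.8 CPM. The groups did not overlap, but controls at 81.2, 92.5 and 48.6 CPM covered both. The log2 fold change was -0.55 (SE 0.20, unadjusted p = 0.0238, adjusted p = 0.719 from edgeR), and 3 of 6 fits that left out 1 mouse kept p under 0.05. Slc25a26, which brings S-adenosylmethionine into mitochondria, was at 11.1, 10.4 and 10.3 CPM with MPTP and at 9.93, 7.80 and 7.94 CPM with irisin before it (log2 fold change -0.31, SE 0.12, unadjusted p = 0.0267, adjusted p = 0.727 from edgeR), and again 3 of 6 such fits kept p under 0.05. Of the 8 marker sets, 4 also had sums without overlap in this comparison. With irisin before MPTP against MPTP alone, red blood cell markers were at 231 to 455 against 549 to 810 CPM, astrocyte markers at 796 to 896 against 924 to 1051 CPM, endothelial markers at 101 to 107 against 110 to 121 CPM and general neuron markers at 4268 to 4363 against 4159 to 4249 CPM. The sums hide single markers that went the other way. Of 3 endothelial markers 2 were lower and 1 was higher, each without overlap (log2 fold changes from -0.26 to 0.53). Of 4 astrocyte markers 1 was higher, of 4 general neuron markers 1 was lower, and all 5 red blood cell markers were lower. Their part in the carrier values was not tested. Slc25a37, the mitoferrin that developing red cells use, was at 40.4 to 44.3 CPM with MPTP and 39.7 to 43.6 CPM with irisin before it.

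**Figure D2:**
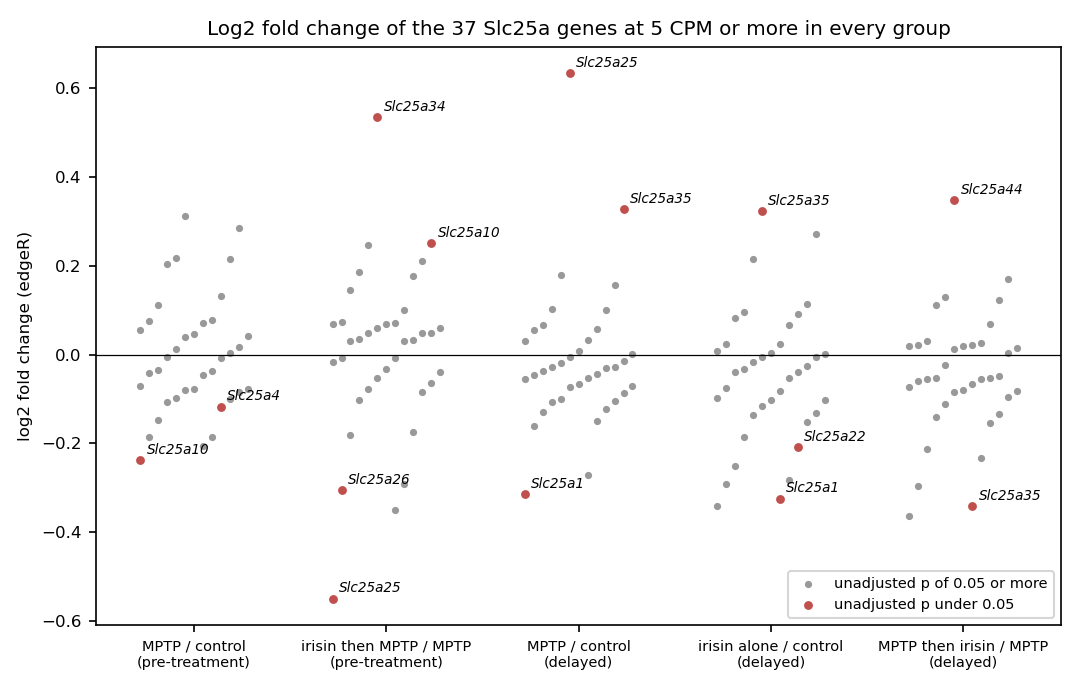
Log2 fold change from edgeR (vertical axis) of the 37 Slc25a genes at 5 CPM or more in every group, for the 5 comparisons between groups; each point is 1 gene, and the named red points have an unadjusted p under 0.05. Slc25a25 is the lowest point with irisin before MPTP and the highest with MPTP in the delayed experiment, and no point has an adjusted p under 0.05.

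In the delayed experiment a 5-day MPTP course followed by 5 days of ddH2O was set against ddH2O throughout. None of the 46 tested carriers had an adjusted p under 0.05 in edgeR, DESeq2 or limma, where 29 of 21922 genes (0.132%) did in edgeR. Unadjusted p-values under 0.05 were found for 2 higher carriers and 1 lower, against 4.32% and 4.01% of all tested genes. Groups did not overlap for 7 carriers higher and 2 lower, beside 16.2% of tested genes in either direction. The higher ones include Slc25a41. It passed edgeR's count filter, at a level of 0.18 CPM, with 0 of 3 controls and 2 of 3 MPTP mice past it, so its separation is a description. The median log2 fold change was -0.02 for the carriers and -0.0013 for all tested genes, with 20 of 46 positive.

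Slc25a25 had the largest change in level among the 37 carriers at 5 CPM or more in every group. It was at 73.5, 93.1 and 75.7 CPM in the controls and at 115, 132 and 129 CPM after MPTP. All MPTP mice lay above all controls, with means of 80.8 ± 10.7 and 125 ± 8.76 CPM. The log2 fold change was 0.63 (SE 0.18, 95% interval 0.24 to 1.03, unadjusted p = 0.00476, adjusted p = 0.379 from edgeR), a ratio of 1.55. It kept an unadjusted p under 0.05 in all 7 other settings and in all 6 fits without 1 mouse, with log2 fold changes of 0.57 to 0.75. Its exons share 379 of 7862 bases with Naif1 on the other strand, and Naif1 was at 5.99 ± 0.361 CPM in controls and 5.91 ± 0.356 CPM after MPTP. In the earlier course, which ended with MPTP, the log2 fold change of Slc25a25 was 0.08 (SE 0.20). The difference between the experiments was not tested, since their tables were made separately.

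The citrate carrier Slc25a1, which exports citrate for fatty acid synthesis, was at 84.7, 71.4 and 73.0 CPM in controls and at 70.4, 62.6 and 51.1 CPM after MPTP. The groups did not overlap (log2 fold change -0.32, SE 0.13, unadjusted p = 0.0379, adjusted p = 0.562 from edgeR), and 3 of 6 fits that left out 1 mouse kept p under 0.05. Slc25a35, a carrier whose cargo is not settled, was at 7.14, 9.32 and 7.08 CPM in controls and at 9.74, 9.96 and 9.86 CPM after MPTP (log2 fold change 0.33, SE 0.14, unadjusted p = 0.0416, adjusted p = 0.568 from edgeR), and 1 of 6 fits without 1 mouse kept p under 0.05. Slc25a35 shares 1151 of its 3677 exonic bases (31.3%) with Rangrf on the other strand, which was at 7.43 ± 0.949 and 8.03 ± 2.06 CPM. Beside these values, dopaminergic markers and the share of mitochondrial genome counts were also lower after MPTP, with ranges given above that do not overlap. General neuron markers were at 3994 to 4202 CPM in controls and 3718 to 3898 CPM after MPTP, also without overlap. The part of these in the carrier values was not tested.

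Irisin alone was compared with ddH2O in mice that received no MPTP. Here too 0 of 46 carriers passed the adjusted test in edgeR, DESeq2 or limma, against 24 genes (0.109%) in edgeR. Unadjusted p-values under 0.05 were found for 1 higher carrier and 2 lower, beside 4.53% and 4.44% of all tested genes. Groups did not overlap for 2 carriers higher and 5 lower, against 15.1% of tested genes. Slc25a41 is 1 of the higher ones, with 0 of 3 controls and 3 of 3 mice with irisin alone past the filter's level of 0.18 CPM. Its separation is again a description. The median log2 fold change was -0.03 and that of all tested genes -0.0023.

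Slc25a1 was at 55.5, 61.4 and 66.0 CPM with irisin alone, below the 71.4 to 84.7 CPM of the same controls (log2 fold change -0.32, SE 0.13, unadjusted p = 0.0335, adjusted p = 0.531 from edgeR), with p under 0.05 in 3 of 6 fits without 1 mouse. Slc25a10 was at 14.6, 14.7 and 14.96 CPM with irisin alone and at 21.7, 18.4 and 16.04 CPM in controls, without overlap (log2 fold change -0.34, SE 0.16, unadjusted p = 0.0544). Slc25a35 was at 10.3, 9.17 and 10.04 CPM, and 1 of the controls, at 9.32 CPM, lay among these values (log2 fold change 0.32, SE 0.14, unadjusted p = 0.0439, adjusted p = 0.545 from edgeR), with p under 0.05 in 2 of 6 such fits. Slc25a22 was at 87.7, 99.0 and 91.6 CPM against 122, 96.8 and 103 CPM, so the groups overlapped (log2 fold change -0.21, SE 0.09, unadjusted p = 0.0469, adjusted p = 0.552 from edgeR). For Slc25a22 1 of 7 other settings and 3 of 6 fits without 1 mouse kept p under 0.05. The MPTP and the irisin groups share the control mice, so the likeness of their values for Slc25a1 and Slc25a35 is not independent. Astrocyte markers were at 1132 to 1394 CPM in these controls and at 1020 to 1100 CPM with irisin alone, the 1 marker set without overlap. Choroid plexus markers were at 225 to 1466 and 53.5 to 283 CPM, with overlap. Their part in the carrier values was not tested.

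The last comparison of groups asked what irisin did after MPTP. No carrier passed the adjusted test in edgeR, DESeq2 or limma, where 1 gene in all did in edgeR (0.00456%). Unadjusted p-values under 0.05 were found for 1 higher carrier and 2 lower, against 2.06% and 1.85% of tested genes. The lower ones include Slc25a31, whose p is a description for the reason given below. In each direction 3 carriers had groups without overlap, beside 10.7% of tested genes in either direction. The median log2 fold change was -0.05, beside -0.0002 over all tested genes.

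Slc25a44, which brings branched-chain amino acids into mitochondria, was at 63.1, 57.6 and 51.9 CPM with MPTP and at 83.5, 70.2 and 65.9 CPM with MPTP and then irisin. The groups did not overlap (log2 fold change 0.35, SE 0.11, unadjusted p = 0.0109, adjusted p = 0.9995 from edgeR). Controls were at 58.0, 70.7 and 62.8 CPM and mice with irisin alone at 66.6, 78.9 and 76.8 CPM. Slc25a35 was at 8.004, 8.89 and 6.45 CPM with MPTP and then irisin, below all MPTP mice (log2 fold change -0.34, SE 0.14, unadjusted p = 0.0353, adjusted p = 0.9995 from edgeR), and 1 of 6 fits without 1 mouse kept p under 0.05. General neuron markers were at 3904 to 4031 CPM with MPTP and then irisin and at 3718 to 3898 CPM with MPTP, and the share of mitochondrial genome counts was also higher without overlap, as given above. Their part in the carrier values was not tested.

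Slc25a25 was at 126, 87.2 and 78.7 CPM with MPTP and then irisin, so 1 mouse lay among the MPTP mice and the others near the controls (log2 fold change -0.36, SE 0.18, 95% interval -0.76 to 0.03, unadjusted p = 0.0672). Slc25a31 had counts of 0, 4 and 38 with MPTP and of 0 in all 3 mice with MPTP and then irisin. Its mean of 0.235 CPM was at least 4.19-fold higher than the floor of 3 counts per library, and that mean rests on 1 mouse at 0.654 CPM. The gene passed edgeR's count filter, at a level of 0.18 CPM, through 1 mouse with MPTP and 2 with irisin alone. With MPTP and then irisin 0 of 3 mice were past it, so its p-values are a description. Slc25a37 was at 31.2 to 31.7 CPM with MPTP and 32.8 to 35.8 CPM with irisin after it, without overlap (log2 fold change 0.13, SE 0.08, unadjusted p = 0.131).

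**Figure D3:**
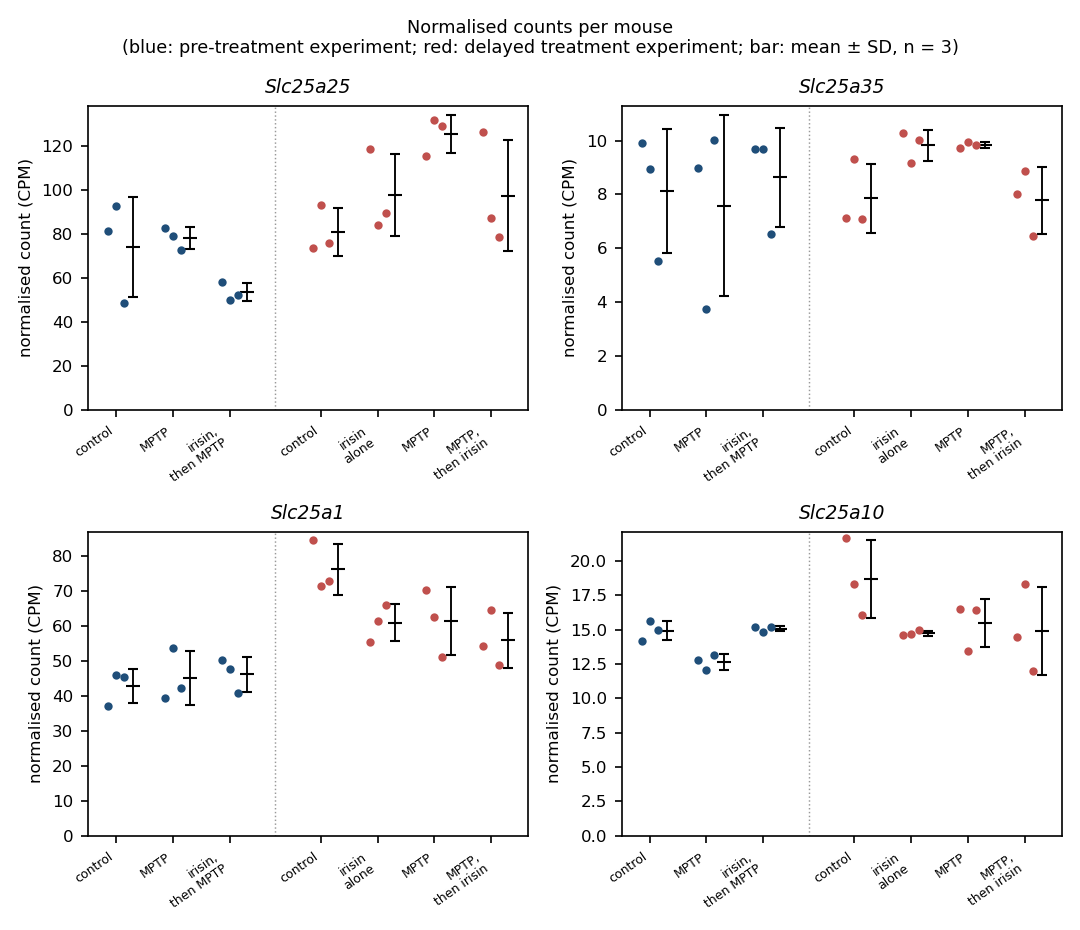
Normalised counts (CPM) of Slc25a25, Slc25a35, Slc25a1 and Slc25a10 in each mouse of the 7 groups (blue, pre-treatment experiment; red, delayed treatment experiment); each point is 1 mouse and the bar is the mean ± SD of 3 mice. Slc25a25 is at 115 to 132 CPM with MPTP and 73.5 to 93.1 CPM in the delayed controls, and the 3 MPTP mice of Slc25a35 lie between 9.74 and 9.96 CPM.

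The effect of irisin with and without MPTP was also compared in one model. Of 46 carriers 0 passed the adjusted test in edgeR, DESeq2 or limma, against 9 genes in all (0.0411%) in edgeR. Unadjusted p-values under 0.05 were found for 0 carriers in the positive and 3 in the negative direction, beside 2.81% and 2.76% of tested genes. Slc25a31 is among the 3, and its p is a description for the reason given above. Slc25a35 differed by -0.66 on the log2 scale (SE 0.20, unadjusted p = 0.00702, adjusted p = 0.854 from edgeR), since irisin went with 9.83 ± 0.579 against 7.85 ± 1.28 CPM without MPTP and with 7.78 ± 1.23 against 9.85 ± 0.110 CPM after it. Slc25a25 differed by -0.63 (SE 0.25, unadjusted p = 0.0293, adjusted p = 0.893 from edgeR).

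The highest carriers were measured closely enough to bound their differences. For the 6 genes of highest level, the log2 fold changes ran from -0.19 to -0.07 with MPTP and from -0.01 to 0.07 with irisin before MPTP in the pre-treatment experiment. In the delayed experiment they ran from -0.11 to 0.01 with MPTP, from -0.12 to -0.01 with irisin alone and from -0.08 to 0.03 with irisin after MPTP. The widest bounds of their 95% intervals over these comparisons were -0.45 (Slc25a18, MPTP in the pre-treatment experiment) and 0.25 (Slc25a18, irisin before MPTP). Slc25a3 was at 356, 381 and 376 CPM in pre-treatment controls and at 349, 355 and 348 CPM with MPTP, where the MPTP mice lay just below the controls (log2 fold change -0.08, SE 0.05, unadjusted p = 0.143). Slc25a11 was at 91.2, 91.2 and 97.3 CPM in these controls and at 89.2, 84.9 and 87.4 CPM with MPTP, also without overlap (log2 fold change -0.10, SE 0.06, unadjusted p = 0.113). In the delayed experiment the control and MPTP mice overlapped for each of these genes, with Slc25a3 at 349 to 431 CPM against 374 to 395 CPM and Slc25a11 at 106 to 135 CPM against 115 to 120 CPM. Slc25a18, which among brain cells is known from astrocytes, was at 109, 103 and 102 CPM in delayed controls and at 93.2, 106 and 97.1 CPM after MPTP, with overlap. Slc25a5 was at 326, 317 and 291 CPM in delayed controls and at 314, 323 and 303 CPM after MPTP. Over all 37 carriers at 5 CPM or more in every group, log2 fold changes ran from -0.24 (Slc25a10) to 0.31 (Slc25a13) and from -0.55 (Slc25a25) to 0.54 (Slc25a34) in the pre-treatment comparisons. In the delayed experiment they ran from -0.32 (Slc25a1) to 0.63 (Slc25a25) with MPTP, from -0.34 (Slc25a10) to 0.32 (Slc25a35) with irisin alone and from -0.36 (Slc25a25) to 0.35 (Slc25a44) with irisin after MPTP.

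Grouped by role, 0 carriers passed the adjusted test in edgeR in any group. The 5 carriers of aspartate, glutamate and oxoglutarate had median log2 fold changes between -0.08 and 0.06 in the 5 comparisons of groups, with Slc25a22 as the 1 unadjusted p under 0.05. The 5 carriers of phosphate and ATP-Mg had medians between -0.02 and 0.14, and the 3 carriers of di- and tricarboxylates, Slc25a1, Slc25a10 and Slc25a21, medians between -0.32 and 0.07. The 5 carriers of ornithine and other amino acids had medians between -0.17 and 0.13. Among them Slc25a38, which brings glycine in for heme synthesis, was at 19.6, 18.4 and 19.1 CPM in pre-treatment controls and 18.7, 21.2 and 17.8 CPM with MPTP, and the ornithine carrier Slc25a15 at 19.5, 17.1 and 19.3 CPM and 21.1 CPM or more in each MPTP mouse, without overlap (log2 fold change 0.20, SE 0.12, unadjusted p = 0.113). The acylcarnitine carrier Slc25a20, which fatty acid oxidation needs, had log2 fold changes of -0.15 to -0.01 over the 5 comparisons, and Slc25a46, at 101 to 146 CPM over all mice, of -0.04 to 0.03. The 7 tested carriers without a listed role, Slc25a34, Slc25a35 and Slc25a47 among them, had medians between -0.17 and 0.18. The 4 carriers of iron and glutathione had medians between -0.07 and -0.00, with 0 unadjusted p-values under 0.05. Slc25a39 was at 55.5, 49.8 and 66.4 CPM in delayed controls, at 53.2, 48.4 and 51.97 CPM after MPTP and at 48.9, 50.7 and 51.3 CPM with irisin alone, with overlap in each comparison (log2 fold changes of -0.16 and -0.19, SE 0.10). Its relative Slc25a40 stayed between 16.8 and 20.05 CPM in every mouse of that experiment. Slc25a28 ran from 26.6 to 36.7 CPM in the delayed controls and MPTP mice together. The 9 carriers of cofactors and nucleotides had medians between -0.08 and 0.05, with Slc25a26 as the 1 small p-value. The NAD carrier Slc25a51 was at 39.2, 55.8 and 43.4 CPM in pre-treatment controls and at 45.2, 74.1 and 49.1 CPM with MPTP, which overlapped (log2 fold change 0.28, SE 0.28). The 3 members near the uncoupling proteins, Slc25a14, Slc25a27 and Slc25a30, a carrier known from the kidney, had medians between -0.08 and 0.10, with none under 0.05. Slc25a14 stayed between 36.02 and 40.96 CPM in all mice of the delayed experiment. Slc25a27 was at 55.8, 54.7 and 55.1 CPM in delayed controls and at 63.9, 58.0 and 55.8 CPM after MPTP, without overlap (log2 fold change 0.10, SE 0.08). Slc25a12, at 231, 214 and 210 CPM in delayed controls and at 231, 235 and 236 CPM after MPTP, had the smallest p among the amino acid carriers there (log2 fold change 0.10, SE 0.05, unadjusted p = 0.0532).

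Mice of a group differed from each other by a median coefficient of variation of 6.71% over the 37 carriers. It was 7.65% over the 11735 genes that also had 5 CPM or more in all 7 groups, which were not matched to the carriers in level. The steadiest was Slc25a12, with a median of 2.69% over the 7 groups, and Slc25a34 and Slc25a35 were the most variable, at 16.8% and 16.3%. At least 1 group held a gap of 2-fold or more between its lowest and highest mouse for 4 carriers, Slc25a13, Slc25a35, Slc25a42 and Slc25a53.

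Slc25a42, which carries coenzyme A, was near one level in most mice and lower in single mice. It was at 23.7, 10.1 and 25.3 CPM with irisin before MPTP, at 12.6, 27.1 and 26.99 CPM with irisin alone and at 29.7, 25.5 and 11.3 CPM with MPTP and then irisin. In the other 4 groups it ran from 21.6 to 29.3 CPM. Each of the 3 groups that received irisin thus held 1 low mouse and the 4 groups without irisin held none, which was seen after the values were known and was not tested. The 3 low mice had counts of 746, 664 and 613. The groups overlapped in each comparison, with a log2 fold change of -0.35 (SE 0.29, unadjusted p = 0.252) for irisin before MPTP.

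Slc25a13 was at 10.5, 12.4 and 4.05 CPM in pre-treatment controls and at 6.53, 11.98 and 13.5 CPM with irisin before MPTP. The remaining groups lay between 10.5 and 15.7 CPM. Slc25a53 was at 15.2, 13.1 and 6.74 CPM with MPTP in the pre-treatment experiment, and Slc25a35 at 8.98, 3.75 and 10.03 CPM in the same group, lowest in another mouse.

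**Figure D4:**
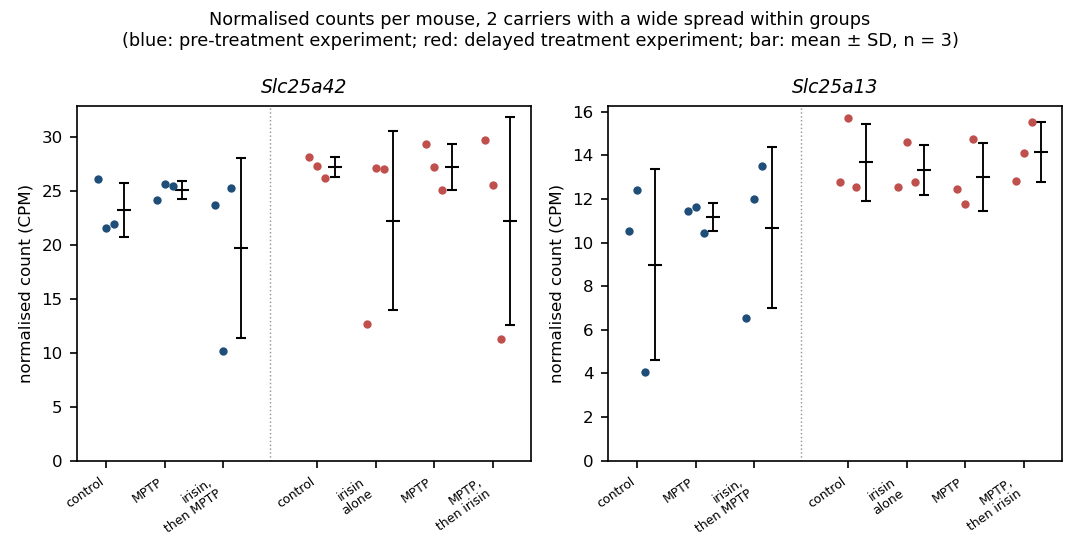
Normalised counts (CPM) of Slc25a42 and Slc25a13 in each mouse of the 7 groups (blue, pre-treatment experiment; red, delayed treatment experiment); each point is 1 mouse and the bar is the mean ± SD of 3 mice. For Slc25a42, 3 mice lie between 10.1 and 12.6 CPM and all others at 21.6 CPM or more, and for Slc25a13, 2 mice lie at 4.05 and 6.53 CPM.

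Genes that work beside the carriers were taken from lists by function. Over 18 other inner membrane transporters, such as the pyruvate carrier, the calcium uniporter and the sideroflexins, 0 passed the adjusted test in any comparison, and 0 to 2 per comparison had an unadjusted p under 0.05. The highest count, 2 of 18 (11.1%), came with MPTP and with irisin alone in the delayed experiment, beside 8.33% and 8.97% of all tested genes. The 3 outer membrane channels of the Vdac family had log2 fold changes of -0.11 to 0.14. Of the family members under other symbols, Ucp3, an uncoupling protein, was at 4.76, 6.88 and 7.62 CPM with MPTP and at 12.3, 10.7 and 9.74 CPM with irisin before it (log2 fold change 0.77, SE 0.18, unadjusted p = 0.00225, adjusted p = 0.371 from edgeR). Ucp3 was at 8.02 to 9.20 CPM in the pre-treatment controls.

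Carriers reach the inner membrane through the small Tim proteins and the TIM22 complex. Timm22, its channel, was at 29.0, 29.1 and 25.6 CPM with MPTP and at 11.3, 11.4 and 12.6 CPM with MPTP and then irisin, without overlap (log2 fold change -1.25, SE 0.37, unadjusted p = 0.00597, adjusted p = 0.9995 from edgeR). Controls of that experiment were at 13.1, 8.67 and 29.4 CPM, which spans both groups, and MPTP mice of the pre-treatment experiment at 9.25, 24.7 and 10.7 CPM. Of the 12 import genes tested, 0 passed the adjusted test in any comparison. Their highest share with an unadjusted p under 0.05 in edgeR came with irisin alone. It was 25.0% (1 higher and 2 lower), beside 8.97% of all tested genes. Timm13, a small Tim protein, was at 30.3 ± 2.84 CPM in delayed controls, 25.4 ± 0.739 CPM after MPTP and 22.6 ± 3.41 CPM with irisin alone.

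Co-variation among mice was described for 3 carriers after each group's mean was removed, over 21 mice and 20770 genes, with libraries and depth shared by all points. Slc25a4 was most alike Ctsf, Srp9 and Mpdu1 (Pearson r of 0.901, 0.875 and 0.867; Spearman rho of 0.820, 0.792 and 0.826). Slc25a18 was most alike Ier5l, Lhx2 and Doc2a (r of 0.926, 0.912 and 0.911), with r of 0.986, 0.983 and 0.975 in the pre-treatment experiment and 0.701, 0.563 and 0.603 in the delayed treatment experiment. Slc25a37 was most alike Rbmxl1, Gm6741 and Rbm34 (r of 0.879, 0.851 and 0.826). These are the highest of many correlations and carry no test.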

How the data were processed

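Per the study's methods, reads from an Illumina NovaSeq were counted per gene with featureCounts; the submitters' processing notes name HISAT, StringTie, edgeR and the build mm9 without roles. The authors deposited read counts and FPKM values per gene and mouse, 1 table per experiment. Gene positions equalled those of GENCODE M21 (GRCm38) for 92.0% and 94.3% of genes. In the delayed table FPKM is 0.0001 wherever the count is 0, which was read as 0.

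Counts were filtered (edgeR filterByExpr, count minimum 10, total minimum 15), scaled by TMM and tested with edgeR 4.0.16 (quasi-likelihood test, R 4.3.3), in 1 fit per experiment over all its groups, with Benjamini-Hochberg adjustment over all tested genes. Intervals use the test's SE and degrees of freedom. With 3 against 3 mice an exact permutation test cannot go below p = 0.1. No mice of a group agreed within sampling noise (chi-square per gene of 39.7 or more). The scripts were tested on simulated data.

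Alternatives were median ratio scaling, no filter, only the compared groups, a replicate block, DESeq2 1.42.0, limma 3.58.1 on log2(FPKM + 1) and log2(FPKM + 0.1), and leaving out each mouse. The text gives the values of up to 4 carriers with the smallest unadjusted p under 0.05 per comparison, the 6 of highest level and listed carriers of each role. Slc25a15, Slc25a20, Slc25a21, Slc25a24, Slc25a29, Slc25a38, Slc25a42, Slc25a43, Slc25a53, Slc25a54 and neighbouring or overlapping genes were named after their values were seen. Members and lists were chosen with earlier results of these data known.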

Additional observations from a re-analysis of the deposited data

Results flagged for a closer look

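Of the Slc25a genes, 3 had an unadjusted p under 0.05 in the test of the difference between the irisin effect with and without MPTP in the delayed experiment, and none had an adjusted p under 0.05 in edgeR. Slc25a35 differed by -0.66 on the log2 scale, and each of 12 fits without 1 mouse kept p under 0.05, with values over all other fits of -0.81 to -0.48. Slc25a25 differed by -0.63, and 5 of 12 such fits kept p under 0.05. Slc25a31 had a fitted difference of -8.28, which is no bound, since counts were 0 in 7 of 12 mice and the value rests on 1 MPTP mouse with a count of 38. With limma on log2(FPKM + 1) the difference was -0.18. The gene passed edgeR's count filter only through mice with MPTP or with irisin alone, so its p is a description.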

How the results depend on the processing

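The count of carriers with an adjusted p under 0.05 was 0 in all 6 comparisons under every alternative, except that DESeq2 gave 1 (Slc25a41, MPTP against control, pre-treatment experiment). This gene had a count of 0 in all controls and of 18 to 30 with MPTP. It passed edgeR's count filter through the MPTP mice, and DESeq2 did not use that filter. Its p is a description in both. For unadjusted p-values under 0.05, the counts of 3 with MPTP in the delayed experiment became 5 with limma on log2(FPKM + 1) and 5 with limma on log2(FPKM + 0.1), which is 10.9% of carriers beside 8.88% and 8.85% of all tested genes. With irisin before MPTP the count of 4 became 6 with only the compared groups (13.3% beside 7.23%). It was 5 with either limma fit (11.1% beside 6.74% and 6.73%). With irisin after MPTP the count of 3 became 4 with DESeq2 or no filter (8.51% beside 3.24% and 3.14%). It was 2 with only the compared groups, the replicate block or limma. Leaving out 1 mouse gave counts of 2 to 6 (MPTP, pre-treatment; 2 without MPTP replicate 2), 2 to 4 (irisin before MPTP; 2 without replicate 2 or 3 of that group), 1 to 4 (MPTP, delayed; 1 without MPTP replicate 3), 1 to 5 (irisin alone; 1 without control replicate 1 or irisin replicate 3, 5 without control replicate 2), 1 to 3 (irisin after MPTP; 1 without MPTP replicate 3) and 1 to 5 (difference of irisin effects; 1 without control replicate 3, MPTP replicate 3 or replicate 2 or 3 of the group with both, 5 without its replicate 1). In these fits 4.80 to 8.61%, 5.04 to 6.05%, 6.55 to 9.01%, 5.85 to 10.4%, 3.31 to 4.83% and 4.55 to 7.45% of all tested genes had an unadjusted p under 0.05. The cause was not tested. Of 274 refitted values for the 20 gene results with an unadjusted p under 0.05, 199 kept p under 0.05, 75 kept only the direction and 0 reversed. These results were chosen by their p in the same mice, so a kept direction is no independent support.

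With the replicate number as a block, 0 carriers passed the adjusted test, and 3, 4, 3, 2, 2 and 2 had an unadjusted p under 0.05 in the 6 comparisons, or 6.67, 8.89, 6.52, 4.35, 4.35 and 4.35% of carriers beside 5.17, 5.59, 7.28, 7.62, 3.51 and 4.71% of all tested genes. Deviations of mice with the same number were weakly correlated (-0.0776 to 0.101 over 9 pairs and -0.0765 to 0.0387 over 18 pairs). Pairs with different numbers in the pre-treatment experiment reached -0.111 and 0.137. A shared litter or batch need not follow the number, so these values cannot show whether any was shared. Carriers under 1 CPM are limited by low counts, with 0 in some mice.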
